A study of Mus musculus with 6 samples.

Results

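Plekhm3, Tnk2, Ldah and the non-coding RNA Gm13111 were 4 of the 55335 genes in the count table of mouse aorta, and for each of them all 3 aged values lay below all 3 young values. They were chosen by their CPM in these libraries, as genes whose aged values lay far below all young values, so the difference between ages in these 4 genes is a description and was not tested. The young group was aorta from 3 mice aged 6 weeks and the aged group was aorta from 3 mice aged 6 months, labelled WT and c57b6l in both groups. According to the methods of the study all mice were male, and the fat around the vessel was dissected away before RNA extraction. Each library came from 1 mouse. CPM, the usual rate of counts in a library, is a count relative to the library total adjusted by TMM in edgeR, which evens out differences in library composition. All 4 members passed the filter on low counts that left 16612 genes.

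The PLEKHM proteins carry pleckstrin homology domains. Plekhm1 and Plekhm2 link the small GTPases Rab7 and Arl8 to lysosome fusion and lysosome movement, whereas Plekhm3 has been described as a scaffold for the kinase Akt in differentiating muscle. Tnk2 encodes ACK1, a cytosolic tyrosine kinase that binds active Cdc42 and clathrin and takes part in the handling of the EGF receptor after it is taken up. Ldah encodes a serine hydrolase that sits on lipid droplets, the stores of neutral lipid in a cell. Gm13111 is annotated as an antisense RNA, although no annotated gene overlaps it, and no function is given here.

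In GENCODE M21 on GRCm38, Plekhm3 (ENSMUSG00000051344) lies on the minus strand of chromosome 1 from 64785983 to 64956824. Tnk2 (ENSMUSG00000022791) lies on the plus strand of chromosome 16 from 32643874 to 32683493. Ldah (ENSMUSG00000037669) lies on the plus strand of chromosome 12 from 8208107 to 8285759. Gm13111 (ENSMUSG00000085069) lies on the plus strand of chromosome 4 from 154637576 to 154644724 and has 1 annotated transcript, where Plekhm3 has 6, Ldah 14 and Tnk2 18. The members thus lie on different chromosomes.

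The 250 bases before a RefSeq start site (GRCm38.p6) are shown for the 3 members found in the promoter table, to let the sequence upstream of genes chosen for one pattern be compared. Capitals mark matches to any of 6 motifs searched on both strands.
Plekhm3, chr1:64956825-64957074, minus strand: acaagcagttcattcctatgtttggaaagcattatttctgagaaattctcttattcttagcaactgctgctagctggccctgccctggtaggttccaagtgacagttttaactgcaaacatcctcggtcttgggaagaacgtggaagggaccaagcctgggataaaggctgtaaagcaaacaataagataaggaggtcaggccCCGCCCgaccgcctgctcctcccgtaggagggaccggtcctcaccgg
Tnk2, chr16:32672904-32673153, plus strand: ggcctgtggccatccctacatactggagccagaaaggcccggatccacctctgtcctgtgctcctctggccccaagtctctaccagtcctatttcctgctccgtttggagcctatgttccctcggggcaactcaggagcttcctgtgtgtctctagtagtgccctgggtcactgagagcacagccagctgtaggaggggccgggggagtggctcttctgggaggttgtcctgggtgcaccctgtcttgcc
Ldah, chr12:8207876-8208125, plus strand: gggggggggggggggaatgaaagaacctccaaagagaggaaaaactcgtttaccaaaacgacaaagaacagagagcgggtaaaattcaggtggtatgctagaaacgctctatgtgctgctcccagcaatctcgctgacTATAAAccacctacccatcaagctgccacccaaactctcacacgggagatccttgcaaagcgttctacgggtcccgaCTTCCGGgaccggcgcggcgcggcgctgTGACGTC

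The Plekhm3 window held 1 GC box (GGGCGG), read on the other strand 47 to 42 bases before the start, and 32.7% of 32851 promoter windows hold one. The Ldah window held a CRE core (TGACGTC) 7 to 1 bases before the start, a sequence present in 2.78% of windows. It also held an ETS core (CCGGAAG, 6.91% of windows) and a TATA box (TATAAA, 12.4% of windows), the latter 112 to 107 bases before the start. The Tnk2 window lies inside the annotated gene, where 6 of its 18 annotated transcripts begin within 50 bases after the window, and held none of the 6 motifs. The E-box (CACGTG, 6.02% of windows) and the CCAAT box (CCAAT, 33.8% of windows) were in none of the 3 windows shown. A second RefSeq start of Ldah, whose window chr12:8207943-8208192 largely overlaps the one shown, adds a CCAAT box 10 to 6 bases before that start and a further ETS core, and reads the CRE core on both strands in overlapping letters. GC content was 51.2% for Plekhm3, 60.8% for Tnk2 and 55.6% for Ldah, against a median of 52.4% over all windows, and no motif was held by all 3.

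Counts on genes summed to between 31049632 and 45832185 per library. Young replicate 1 went against the male sex stated in the methods of the study. It had 14806 counts of Xist against 24 or fewer in the other 5 libraries. Of the Y-linked gene Ddx3y it had 53 counts against at least 1488. On the first principal component, aged replicate 2 lay at -13.4, nearer to the young libraries (-52.2 to -10.3) than to the other aged libraries (53.8 and 62.7). Smooth muscle markers were abundant in every library, with a summed level of 32354 to 40283 CPM over 8 genes in young and 28083 to 33396 in aged aorta. Cardiac muscle markers summed to 365 CPM in young replicate 1 and to 50.6 to 74.7 CPM in the others, and endothelial markers to 1645 CPM in aged replicate 3 and to 354 to 516 CPM in the others. Mitochondrially encoded genes took 14.9% to 21.2% of counts in young and 23.1% to 30.4% in aged libraries, and without them the log2 fold changes of Plekhm3, Tnk2, Ldah and Gm13111 were -2.15, -1.41, -2.05 and -1.13. Values are also given without young replicate 1 and aged replicate 2.

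Plekhm3 had 656, 375 and 460 counts in young replicates 1, 2 and 3, or 13.5, 10.8 and 13.4 CPM. In aged replicates 1, 2 and 3 it had 97, 99 and 85 counts, or 2.92, 2.62 and 3.01 CPM. The aged libraries lay close together and all 3 were far below the lowest young library. The mean was 12.6 ± 1.56 CPM (SD, n = 3) at 6 weeks against 2.85 ± 0.201 (SD, n = 3) at 6 months, a level 77.3% lower (log2 fold change -2.14, SE 0.22). With so few counts, the 95% Poisson interval of a single aged library reached from 2.40 to 3.72 CPM in replicate 3, wider than the spread between the aged libraries. Such intervals cover counting error only. The log2 fold changes and SEs of the members come from the same values that chose them. That choice favours large differences and small spreads, and no correction was made for it.

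Ldah, the lipid droplet hydrolase, was at 17.6, 33.3 and 27.0 CPM in young replicates 1, 2 and 3, from 851, 1159 and 925 counts. It was at 5.84, 6.79 and 6.19 CPM in aged replicates 1, 2 and 3, from 194, 256 and 175 counts. Young libraries varied by far the most for this member, with a coefficient of variation of 30.5% in young against 7.63% in aged aorta, and the lowest young value was that of replicate 1. The mean was 25.9 ± 7.92 CPM (SD, n = 3) at 6 weeks against 6.27 ± 0.479 (SD, n = 3) at 6 months, 75.8% lower (log2 fold change -2.05, SE 0.26).

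Tnk2, the ACK1 kinase gene, was the most abundant member, with 5948, 5660 and 4342 counts in young replicates 1, 2 and 3. These are 122.8, 162.7 and 126.5 CPM. In aged replicates 1, 2 and 3 it was at 53.6, 49.99 and 52.2 CPM, from 1781, 1886 and 1475 counts. The mean was 137 ± 22.03 CPM (SD, n = 3) at 6 weeks against 51.9 ± 1.82 (SD, n = 3) at 6 months, 62.2% lower (log2 fold change -1.40, SE 0.17). The aged libraries differed by little, with a coefficient of variation of 3.50%, and the groups did not overlap.

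Gm13111, the RNA annotated as antisense, was at 51.7, 42.4 and 41.5 CPM in young replicates 1, 2 and 3, from 2503, 1475 and 1425 counts. In aged replicates 1, 2 and 3 it was at 20.9, 23.1 and 18.2 CPM, from 696, 872 and 514 counts. The mean was 45.2 ± 5.62 CPM (SD, n = 3) at 6 weeks against 20.7 ± 2.47 (SD, n = 3) at 6 months, 54.1% lower (log2 fold change -1.12, SE 0.17). It had the smallest difference of the 4 members, and its highest aged library was replicate 2.

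**Figure D1:**
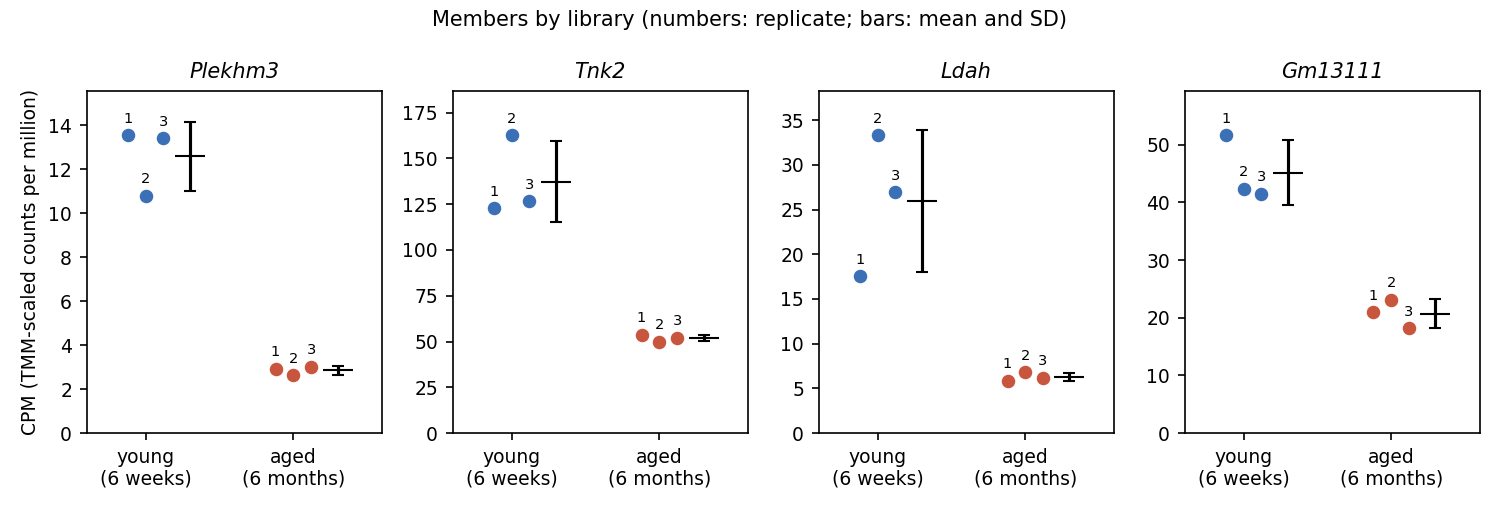
CPM (TMM-scaled, linear axis from 0) of each member in each library, with the 3 young mice (6 weeks) in blue and the 3 aged mice (6 months) in red. Numbers give the replicate, and bars give the mean and SD. Every aged point lies below every young point, as the choice of these genes requires, and the young points of Ldah are spread most widely.

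The members did not follow one another within the young group. Tnk2 and Ldah were highest in young replicate 2 and lowest in young replicate 1, while Plekhm3 was lowest in young replicate 2 and both Plekhm3 and Gm13111 were highest in young replicate 1. Without young replicate 1, the log2 fold changes were -2.08 for Plekhm3, -1.47 for Tnk2, -2.25 for Ldah and -1.01 for Gm13111. Without young replicate 1 and aged replicate 2 together they were -2.02, -1.45, -2.32 and -1.096 in the same order. Because whole aorta was sequenced, fewer cells of a type and less RNA per cell cannot be told apart.

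Levels between genes were compared as FPKM, which the authors scaled for gene length and which lacks the TMM adjustment of CPM. Tnk2 was highest at 21.03 ± 3.50 FPKM (SD, n = 3) at 6 weeks against 6.80 ± 0.304 at 6 months. Gm13111 followed at 12.4 ± 1.24 and 4.91 ± 0.726 FPKM. Ldah was at 3.47 ± 1.10 and 0.704 ± 0.0673 FPKM, and Plekhm3 was lowest at 1.12 ± 0.138 and 0.217 ± 0.0113. The order was the same at both ages, and neighbours in this order did not overlap between libraries of one age.

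How far the groups lay apart was read as the lowest young CPM divided by the highest aged CPM, over the 13002 tested genes with at least 1 CPM in every young library. This ratio was 3.58 for Plekhm3, 2.59 for Ldah, 2.29 for Tnk2 and 1.80 for Gm13111, which placed them at ranks 3, 8, 11 and 26. Of these 13002 genes, 1318 had a ratio of at least 1 and 17 had a ratio of at least 2. Plekhm3 stood between the microRNA gene Mir143 (5.45) and the antisense RNA A230077H06Rik (3.42), and Ldah between Carmn (2.99) and the thin filament gene Lmod3 (2.51). Tnk2 stood between Vstm2b (2.37) and Cilp2 (2.29), and Gm13111 between AC108401.1 (1.82) and Gm21986 (1.79). The 4 members are thus not the 4 widest gaps, and other genes lay between them. In young aorta the mean level of the genes ranked directly beside a member, Carmn aside, was lower than that of the member, for example 2.997 ± 0.837 CPM (SD, n = 3) for Lmod3 and 6.11 ± 1.84 CPM (SD, n = 3) for Cilp2.

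**Figure D2:**
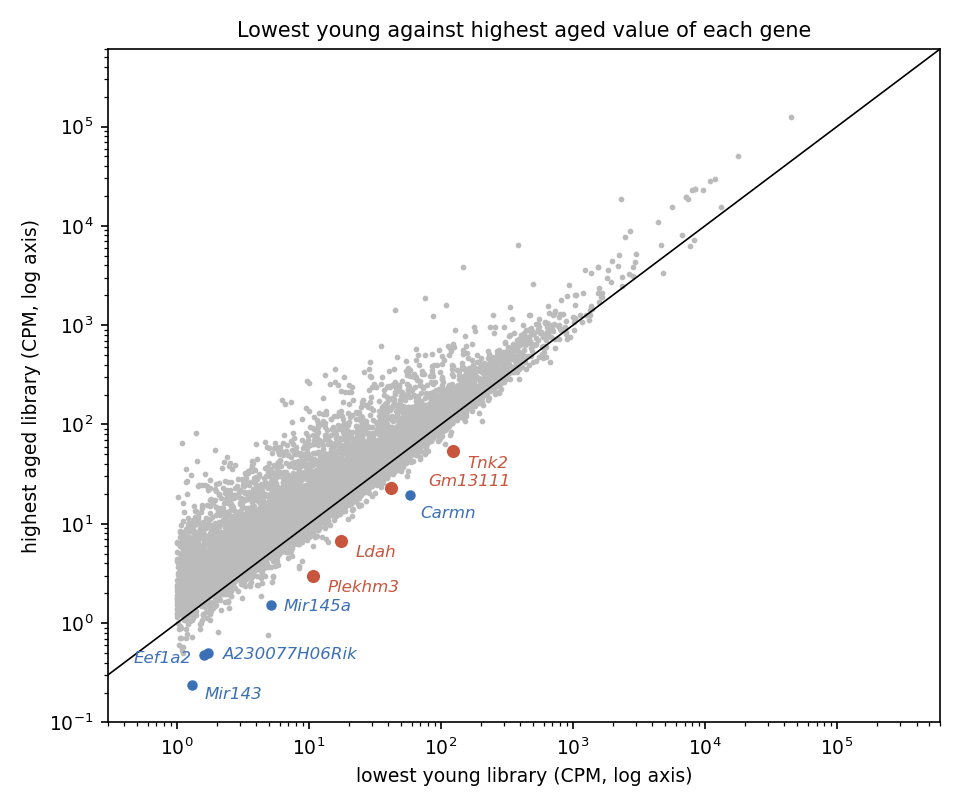
Lowest young CPM against highest aged CPM of each of the tested genes with at least 1 CPM in every young library and above 0 in an aged library, on log axes. Points below the line are genes whose aged libraries all lie below all young libraries, members are red, and the 5 other genes of ranks 2 to 7 are blue. Tnk2 sits at the most abundant end of the labelled genes, with 122.8 CPM in its lowest young library.

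Among 16612 genes that passed edgeR's filter on low counts, every aged library was below every young library for 8.78% and above for 7.74%. The quasi-likelihood test called 0% of genes at a Benjamini-Hochberg adjusted p below 0.05, while 4.82% were lower and 5.56% were higher in aged aorta at an unadjusted p below 0.05. DESeq2 called 0.555% of 15870 genes as lower and 1.37% as higher. These shares are the background for the counts of other genes given here, and nothing is read from them about the 4 members.

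Near the members, 11 annotated genes were read, namely every gene that overlaps a member and the nearest tested gene on each side. Of these, 9 were tested, 0 were called by edgeR after adjustment, and 4 were lower at an unadjusted p below 0.05, against 4.82% of all genes. These 4 were Fzd5, Tnk2os, Prdm16 and Gm27202, and in each the aged libraries lay below the young ones without overlap, against 8.78% of all genes. None was higher at that p. Without young replicate 1 the log2 fold changes of Fzd5, Tnk2os, Prdm16 and Gm27202 were -0.72, -2.88, -0.54 and -0.82, and the unadjusted p of Prdm16 (0.051) and Gm27202 (0.050) no longer passed. Without aged replicate 2 they were -0.89, -2.75, -0.66 and -0.89, and that of Tnk2os (0.082) did not pass. Without aged replicate 2, Muc4 was lower (-1.55) and Rpl10a-ps1 (0.47) and Gm48898 (1.28) were higher at an unadjusted p below 0.05, and again none of these 7 genes passed after adjustment.

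Gm13111 starts 702 bases from Prdm16, whose coordinates are lower and whose strand is the opposite one (chromosome 4 from 154316125 to 154636873). Prdm16 encodes a zinc finger transcription factor known for brown fat and also active in arterial endothelium and smooth muscle. It was at 92.2, 94.6 and 99.7 CPM in young replicates 1, 2 and 3, and at 50.9, 77.8 and 70.0 CPM in aged replicates 1, 2 and 3. The log2 fold change was -0.53 (standard error 0.19, adjusted p = 0.424 by edgeR). On the other side of Gm13111, 358 bases away, the non-coding gene Gm27202 was at 9.29 ± 0.619 CPM (SD, n = 3) at 6 weeks against 5.30 ± 1.69 (SD, n = 3) at 6 months. For this gene the log2 fold change was -0.81 (SE 0.29) and the edgeR adjusted p was 0.424. These 3 genes of one stretch of chromosome 4 were therefore all lower in each aged library, with Gm13111 the lowest relative to young aorta. Brown adipocyte markers summed to 132 to 630 CPM in young and 180 to 1951 CPM over 6 genes in aged aorta, the last in aged replicate 2. That library also had the highest aged value of Prdm16 and Gm13111, whereas Gm27202 was highest in aged replicate 1. In young aorta the sum was highest in replicate 2 and lowest in replicate 3. There Prdm16 was highest in replicate 3 and Gm13111 in replicate 1. The part of the brown adipocyte markers in these values was not tested.

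Fzd5, a Wnt receptor gene 48231 bases from Plekhm3 on the same strand, was at 20.6, 15.7 and 20.5 CPM in young replicates 1, 2 and 3. It was at 10.1, 12.5 and 10.3 CPM in aged replicates 1, 2 and 3. The log2 fold change was -0.79 (SE 0.20) and the edgeR adjusted p was 0.377. The gene on the other side, the ribosomal pseudogene Rpl10a-ps1, had a log2 fold change of 0.34 (edgeR adjusted p = 0.580). Tnk2os is an RNA antisense to Tnk2 that shares 71 exonic bases with it. It had 22, 47 and 60 counts in young and 0, 10 and 10 counts in aged replicates 1, 2 and 3. For this gene the log2 fold change was -2.51 (SE 1.06) and the edgeR adjusted p was 0.477. Whether counting used the strand is not given in the sources used here, so reads of Tnk2 and Tnk2os in the shared bases cannot be told apart. Tfrc, the transferrin receptor gene 11079 bases before Tnk2, was at 11.5 ± 2.88 and 10.98 ± 5.35 CPM (SD, n = 3 each), and Muc4, a mucin gene on the other side, at 3.19 ± 1.54 and 2.06 ± 1.73 CPM (SD, n = 3 each), with edgeR adjusted p of 0.965 and 0.759. Beside Ldah, Apob and Gm48898 (AC122860.2 in the files) were at 3.38 and 7.11 CPM or below in every library, with adjusted p of 0.722 and 0.647 by edgeR. The annotated genes that overlap Plekhm3 and Ldah, Rpl31-ps24 and Gm33037, had 0 counts in all libraries.

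**Figure D3:**
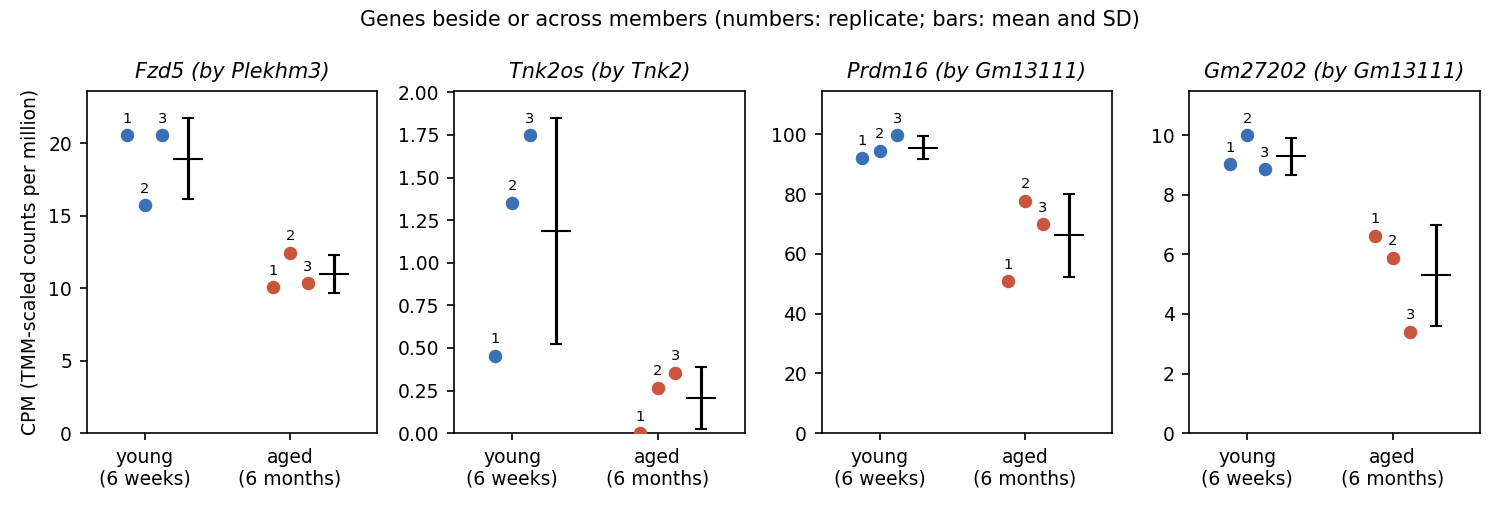
CPM (linear axis from 0) by library of the 4 genes beside or across a member that were lower at an unadjusted p below 0.05, with young mice in blue, aged mice in red, replicate numbers at the points, and bars for the mean and SD. Aged points lie below young points in each panel, and the young points of Tnk2os reach from 0.454 to 1.75 CPM.

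Partners of Plekhm3 in the endolysosomal system were spread to both sides of 0. Of 38 listed genes 37 were tested, 16 with a negative and 21 with a positive log2 fold change. Over all 16612 genes tested, 7958 were negative and 8654 positive. The median was 0.03 against 0.02 over all genes tested, and 0 genes were called by edgeR or by DESeq2. At an unadjusted p below 0.05, 0 were lower and 1, Rab7b, was higher, against 4.82% and 5.56% of all genes. Aged libraries did not overlap with young ones for 6 genes, 2 lower (Rubcn and Vps18) and 4 higher (Lamp2, Gabarapl1, Map1lc3b and Rab7), named here after their values were seen. Of all genes, 8.78% were lower and 7.74% higher in this way. Without young replicate 1 the median was 0.04 and without aged replicate 2 it was 0.05, but without aged replicate 1 it was -0.01. The count at an unadjusted p below 0.05 became 3 without aged replicate 1, 2 without aged replicate 2 or young replicate 1, and 0 without aged replicate 3 or young replicate 3. The median, like that of all genes, was -0.22 with total counts in place of TMM. The gene left untested, Rubcnl, had 11 counts or fewer in every library. Plekhm1, the Rab7 adaptor, was at 26.6 ± 2.88 CPM (SD, n = 3) at 6 weeks against 26.6 ± 2.91 (SD, n = 3) at 6 months. Plekhm2, the Arl8 adaptor, was at 75.2 ± 2.58 and 72.8 ± 13.2 CPM (SD, n = 3 each). That is a log2 fold change of -0.05 (SE 0.17) and the edgeR adjusted p was 0.938. Both exceeded Plekhm3 in level per length, at 4.34 ± 0.491 FPKM for Plekhm1 and 14.2 ± 0.372 FPKM for Plekhm2 in young aorta.

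Rab7b, a Rab GTPase of myeloid endosomes, was at 4.83, 5.95 and 4.52 CPM in young and 17.5, 4.59 and 16.6 CPM in aged replicates 1, 2 and 3. Aged replicate 2 lay within the young range, and the adjusted p was 0.429 by edgeR and 0.0356 without aged replicate 2. The 8 macrophage markers were all higher in aged aorta in the fit, with a summed level of 106 to 143.3 CPM in young and 479, 143.1 and 315 CPM in aged replicates 1, 2 and 3, and their part in the level of Rab7b was not tested. The most abundant genes of the list were Lamp1, a lysosome membrane protein, at 215 ± 30.6 FPKM (SD, n = 3) at 6 weeks against 196 ± 34.0 at 6 months, and Gabarap, an autophagosome protein, at 141 ± 10.3 and 152 ± 39.6 FPKM. Both differences in FPKM were smaller than the SD of the group that varied more. FPKM lacks the TMM adjustment, and in the fit on counts the log2 fold changes of Lamp1 and Gabarap were 0.08 and 0.32.

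Signalling partners of Tnk2 lay on the higher side more often than on the lower side. Of 40 genes tested, 28 had a positive and 12 a negative log2 fold change, against 8654 and 7958 of all 16612 genes. The median was 0.14 against 0.02 over all genes tested. By edgeR 0 were called. At an unadjusted p below 0.05 there were 6 higher and 0 lower, against 5.56% and 4.82% of all genes. These 6 became 9 without aged replicate 2 and 3 without young replicate 2. DESeq2 called 2 as higher and 0 as lower, namely Errfi1 and Pdgfra. Every aged library was above every young one for 6 genes and below for 3 (Pdgfrb, Nck2 and Cttn, named after their values were seen). Of all genes, 7.74% were above and 8.78% below in this way. Without young replicate 1 the median was again 0.14. Without aged replicate 2 it was 0.20. With total counts in place of TMM the median of the list was -0.10 and that of all genes -0.22, so both moved down and the list's median again lay above that of all genes.

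Errfi1, which encodes an inhibitor of EGF receptor kinases with a stretch related to ACK1, was at 63.9, 56.1 and 76.6 CPM in young replicates 1, 2 and 3. It was at 104.9, 322 and 220 CPM in aged replicates 1, 2 and 3. All aged libraries lay above all young ones but differed widely, and the log2 fold change was 1.72 (standard error 0.39, adjusted p = 0.372 by edgeR and 0.00109 by DESeq2). Pik3r1, a regulatory subunit of PI3 kinase, was at 51.4 ± 4.73 and 72.4 ± 1.28 CPM (SD, n = 3 each), and its log2 fold change was 0.49 (edgeR adjusted p = 0.379). Pdgfra, a growth factor receptor of fibroblasts, was at 170, 54.5 and 134 CPM in aged replicates 1, 2 and 3 against 44.0 to 52.7 in young aorta. Its adjusted p was 0.382 by edgeR, 0.0293 by DESeq2 and 0.0344 by edgeR without aged replicate 2. The 8 fibroblast markers, of which Pdgfra is one, summed to 3755 to 5832 CPM in young and to 10079, 3379 and 7341 CPM in aged replicates 1, 2 and 3, and their part in the level of Pdgfra was not tested.

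The most abundant partners of Tnk2 were Hsp90ab1 and Cdc42. Cdc42, the GTPase that ACK1 binds, was at 104 ± 3.49 FPKM (SD, n = 3) at 6 weeks against 92.6 ± 8.13 at 6 months. In counts its log2 fold change was 0.06 (SE 0.15), with an edgeR adjusted p of 0.909. Hsp90ab1, a chaperone of kinases, was at 265 ± 47.1 and 274 ± 12.5 FPKM (SD, n = 3 each), with a log2 fold change in counts of 0.27. Tnk1, the nearest relative of Tnk2, was scarce, at 0.641 to 0.722 CPM in young and 0.530 to 3.22 CPM in aged aorta. The groups overlapped for Tnk1, and its log2 fold change was 1.21 (standard error 0.69, adjusted p = 0.574 by edgeR).

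Lipid droplet genes other than Ldah lay mostly on the higher side. Of 45 listed names 42 were in the files and 40 were tested (Mettl7b and Cideb had 40 counts or fewer in every library), 32 with a positive and 8 with a negative log2 fold change. Of all 16612 genes tested, 8654 were positive and 7958 negative. The median of the list was 0.31 against 0.02 over all genes tested. It was -0.04 without aged replicate 2 and 0.23 without young replicate 1, so its sign rests on aged replicate 2. On log2(FPKM + 1) it was -0.10, where the median of all genes was -0.12. By edgeR and by DESeq2 0 genes were called. At an unadjusted p below 0.05 edgeR gave 2 lower and 1 higher, against 4.82% and 5.56% of all genes. These 3 genes became 9 without aged replicate 2, 5 without young replicate 1 and 1 without young replicate 3. Groups did not overlap for 2 lower (Lpcat1 and Faf2) and 3 higher genes (Lipa, Abhd4 and Rab18), against 8.78% and 7.74% of all genes.

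Lpcat1, an enzyme of phospholipid remodelling, was at 6.47 ± 0.742 CPM (SD, n = 3) at 6 weeks against 3.71 ± 0.655 at 6 months. The log2 fold change was -0.80 (SE 0.25) and the edgeR adjusted p was 0.390. Faf2, which acts in the removal of proteins from the endoplasmic reticulum and lipid droplets, was at 43.0 ± 2.29 and 33.1 ± 2.46 CPM (SD, n = 3 each), with an adjusted p of 0.439 by edgeR. Lipa, the acid lipase of the lysosome, was at 32.2 ± 4.39 and 49.3 ± 4.71 CPM (SD, n = 3 each). For this gene the log2 fold change was 0.61 (SE 0.17) and the edgeR adjusted p was 0.377. The most abundant genes of the list by mean FPKM were Cidea and Plin4. Plin4, a lipid droplet coat protein, was at 439, 586 and 542 CPM in young and 309, 901 and 449 CPM in aged replicates 1, 2 and 3. Cidea, a lipid droplet protein of brown fat, was at 311 CPM in aged replicate 2 and at 17.6 to 162 in the other libraries. Within each age the libraries stood in the same order for Ldah and Plin4, with replicate 2 highest and replicate 1 lowest. Cidea did not share this order in young aorta, at 63.8, 162 and 29.0 CPM in replicates 1, 2 and 3. Plin1 and Cidec of the same list were also lowest in young replicate 3. Aged replicate 2 was the highest aged library for Ldah, Plin4 and Cidea. However, the Poisson intervals of Ldah in aged replicates 1, 2 and 3 overlapped (5.04 to 6.72, 5.98 to 7.67 and 5.31 to 7.18 CPM). A link between Ldah and Plin4, Cidea, Plin1 or Cidec was not tested.

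**Figure D4:**
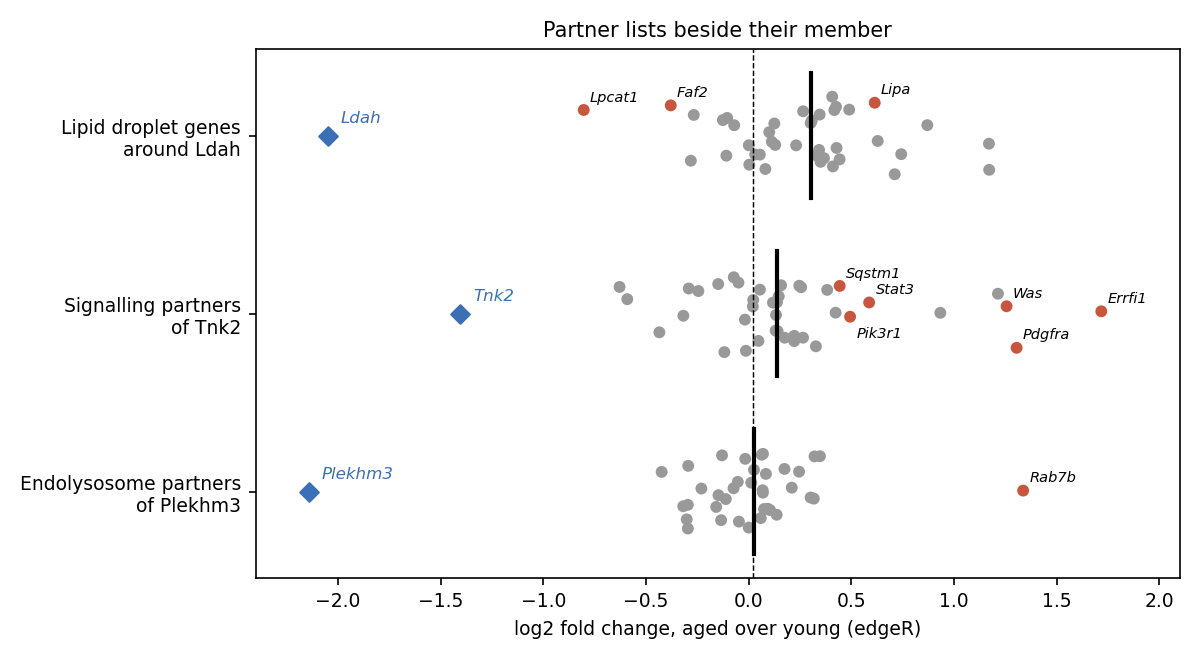
Log2 fold change of aged over young aorta (edgeR) for each tested gene of the 3 partner lists, with red for an unadjusted p below 0.05 and grey otherwise. Black bars mark the median of each list, the dashed line the median of all genes tested (0.02), and blue diamonds the member beside its list. Each member lies to the left of all genes of its list, at -2.14, -1.40 and -2.05, and was chosen for being low.

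Genes whose pattern over the 6 libraries was most like that of each member were found by Pearson's r of log2 CPM, as a description over libraries that share the split by age. For Plekhm3 these were Mcm3ap (r = 0.996), the lysosomal ATPase gene Atp13a2 (0.995) and Virma (0.995). Their log2 fold changes, -0.48, -0.38 and -0.28, were smaller in size than that of Plekhm3, with Mcm3ap at 39.4 ± 1.62 and 28.3 ± 0.908 CPM (SD, n = 3 each) in young and aged aorta. For Tnk2 they were Cnot7 (0.992), 9130019P16Rik (0.988) and Abcg4 (0.986), with Cnot7, a subunit of the mRNA deadenylase complex, at 27.1 ± 2.63 and 15.2 ± 0.369 CPM (SD, n = 3 each). For Ldah they were Bag6 (0.994), Gm13270 (0.992) and Rbm10 (0.992). Of these, Bag6 was only slightly lower at 121 ± 3.52 and 107 ± 1.67 CPM (SD, n = 3 each). Gm13270 was scarce, at 0.431 ± 0.118 and 0.171 ± 0.0183 CPM (SD, n = 3 each). For Gm13111 they were Mybpc2 (0.993), Bbip1 (0.990) and Tle2 (0.990), and Mybpc2, a myosin binding protein of fast skeletal muscle, was at 9.14 ± 0.721 and 3.47 ± 0.376 CPM (SD, n = 3 each). Skeletal muscle markers summed to no more than 24.6 CPM over 8 genes in any library, with 8.94 to 24.6 CPM in young and 12.5 to 19.4 CPM in aged aorta.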

How the data were processed

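Aorta RNA of 3 young and 3 aged mice was sequenced single-ended. The authors deposited reads counted per gene as whole-number counts and, in a second file, FPKM scaled by the authors for gene length and library reads. The submitters' notes name mm10, and the aligner, counter and strand setting are not given in the sources used here. Counts were filtered (filterByExpr, minimum count 10, minimum total 15), scaled by TMM and fitted with edgeR 4.0.16 (quasi-likelihood, no covariate) in R 4.3.3, calling genes at a Benjamini-Hochberg adjusted p below 0.05. The fit was tested on simulated data. Standard errors are the log2 fold change divided by the square root of F. DESeq2 1.42.0 and limma 3.58.1 on log2(FPKM + 1) or log2(FPKM + 0.1) were alternatives. Correlations used log2 CPM with a prior count of 2. P values weigh the difference between ages against the spread between libraries, which edgeR moderates over all genes. That spread takes in the mice and the handling of each sample alike.

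The members and lists were chosen with earlier results of these data known. Lists were written by hand. Named were the members, the first 5 other genes by gap and those ranked beside a member, the 3 most alike genes, neighbouring and overlapping genes, and for each list up to 3 genes a direction at an unadjusted p below 0.05, the 2 most abundant, and relatives of the members. A gene that this rule names is not reported here. Promoter windows are from RefSeq.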

Additional observations from a re-analysis of the deposited data

How the results depend on the processing

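Every alternative left the 4 members lower in aged aorta. With each library left out in turn, the log2 fold change lay between -2.23 and -2.08 for Plekhm3, -1.47 and -1.25 for Tnk2, -2.25 and -1.82 for Ldah, and -1.21 and -1.01 for Gm13111. The direction follows from how the genes were chosen. On log2(FPKM + 1) Plekhm3 was at -0.80 and Ldah at -1.36, since a pseudocount of 1 is large beside their FPKM. On log2(FPKM + 0.1) Plekhm3 was at -1.94, Tnk2 at -1.60 and Gm13111 at -1.33. With total counts in place of TMM, an alternative chosen after seeing the data, they were at -2.38, -1.64 and -1.35, while the median of all genes moved from 0.02 to -0.22.

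DESeq2 called 305 genes where edgeR called 0, and leaving out 1 library gave 0 to 110, the highest without aged replicate 2. Without it, 1 endolysosome gene (range 0 to 1) and 1 partner of Tnk2 (range 0 to 1) were called, and DESeq2 called 2 partners of Tnk2. The cause was not tested. The number of called lipid droplet genes stayed at 0 throughout. Without young replicate 1 and aged replicate 2 together, and without mitochondrial genes, both also chosen after seeing the data, 0 genes were called, with 2766 and 1724 at an unadjusted p below 0.05. Deviations of same-numbered libraries correlated weakly, at 0.079, 0.117 and 0.096. With so few libraries these values cannot decide whether same-numbered mice shared a batch or handling. The sources used here describe no pairing. With the replicate block, 0 genes were called and the members were at -2.13, -1.39, -2.003 and -1.12 in the order Plekhm3, Tnk2, Ldah and Gm13111. Low counts limit Plekhm3 most, at 85 to 99 per aged library.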

Other observations

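Other genes high in the gap ranking were chosen by the same young and aged values, so these are descriptions. Carmn, a long non-coding RNA of smooth muscle, was at 57.9 to 171 CPM in young and 7.43 to 19.3 CPM in aged aorta. The microRNA genes Mir143 and Mir145a, which belong to the same locus, were at 1.31 to 2.70 and 5.14 to 10.1 CPM in young and at no more than 0.241 and 1.53 CPM in aged aorta. Gene counts of such short genes need not measure the mature microRNA. Eef1a2, a translation factor of muscle and nerve, was at 1.61 to 5.68 and 0.106 to 0.481 CPM. All 8 smooth muscle markers had a negative log2 fold change, as had 7958 of all 16612 genes tested. Of the 8, 2 did not overlap between the groups, against 8.78% of all genes. At an unadjusted p below 0.05 by edgeR there were 4, against 4.82% of all genes on the lower side. All 7 tested cardiac muscle markers were also negative, 1 without overlap and 4 at that p, with their highest sum in young replicate 1. The part of these markers in the values above was not tested.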
